A study of Mus musculus with 6 samples.

Results

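SR proteins and heterogeneous nuclear ribonucleoproteins (hnRNPs) are the 2 large families of RNA-binding proteins that steer pre-mRNA splicing. The set described here holds 38 of the 24411 genes in the count tables, chosen by symbol from these families and their close partners. It has 12 SR and SR-like genes, 18 hnRNP genes, 4 genes for binders of polypyrimidine tracts, and 4 for RBM proteins and DEAD-box helicases. Not every gene of these families is included. The set and the further lists below were chosen with earlier results of these data known, so their shares of changed genes are descriptions. RNA from cerebellum at postnatal day 18 was sequenced in bulk from 3 knockout libraries (KO), made from mice that lack the remote enhancer of Atoh7, and from 3 wild-type libraries (WT). Atoh7 encodes a transcription factor needed for retinal ganglion cells. The labels name no strain, sex, number of animals per library or ends of the deletion. The replicates are described as independent without saying whether each is a separate animal, so p-values measure the spread between these libraries, which may be technical. In bulk RNA, fewer cells of a type and less RNA per cell cannot be told apart.

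SR proteins bind exonic enhancers through RNA recognition motifs and recruit the splicing machinery through a tail rich in arginine and serine, whose phosphorylation is set by dedicated kinases. hnRNPs coat nascent transcripts, often oppose SR proteins at the same exons, and act in RNA export, stability and transport as well. Many genes of both families adjust their own output by splicing in a poison exon, a cassette exon with a premature stop codon that sends the transcript to nonsense-mediated decay, or by keeping an intron so that the transcript stays in the nucleus. In brain, these proteins act beside neuronal regulators such as Nova, Rbfox and Elavl proteins, and the switch between Ptbp1 and Ptbp2 is a textbook step of neuronal maturation.

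The tissue entry of the labels reads retina while the design text reads cerebellum. The 6 Purkinje cell markers summed to 3320 to 4230 CPM (counts scaled to library size) in KO and 3060 to 3690 CPM in WT. The 7 photoreceptor markers summed to 0.883 to 1.18 CPM in KO and 1.42 to 2.17 CPM in WT, with Crx at 0 in all 6 libraries. The 5 markers of retinal ganglion, bipolar and Mueller cells summed to 12.2 to 13.9 CPM in KO and 11.2 to 15.7 CPM in WT. Gene reads other than Rn45s, the ribosomal RNA precursor, numbered 32139351 to 33940607 in KO and 6015125 to 27315398 in WT. WT replicate 3 was the shallow library: Rn45s took 63.2% of its gene reads, against 1.28% to 3.04% in the other 5, and unmapped reads 18.2% of the library. Outside annotated exons lay 17.3% ± 0.291 of the reads of KO and 34.3% ± 3.59 of those of WT libraries (SD, n = 3 each; exact permutation test, two-sided, p = 0.1, which is the lowest value possible with 3 per group). Markers of meninges (5 of 5) and of blood vessels (5 of 6) were lower in KO, with sums of 176 to 191 CPM in KO against 254 to 395 CPM in WT for meninges and 131 to 133 CPM in KO against 186 to 199 CPM in WT for vessels. Markers of oligodendrocytes summed to 27400 to 29500 CPM in KO and 21500 to 24600 CPM in WT, with 0 of 5 past the test, and those of granule cells to 1030 to 1370 CPM in KO and 1290 to 1670 CPM in WT, with 1 of 7 lower. The part of these library and marker differences in the results that follow was not tested. Atoh7 itself had 45, 54 and 92 reads in KO and 72, 56 and 7 reads in WT, and as the deleted element is remote from the gene these counts do not check the genotype.

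Most SR genes of the set fell in KO cerebellum, and most of its hnRNP genes did not pass the test. Some genes of these families lie outside the set, and Hnrnpdl, Hnrnpll and Srsf12 are given with the relatives below. Of the 38 genes, all of which passed the filter on low counts, 16 fell, 0 rose and 22 did not pass the test, where 10.2% of all 15519 tested genes fell and 6.43% rose at the same threshold (adjusted p under 0.05, edgeR's quasi-likelihood test). The median log2 fold change, KO over WT, was −0.32 over the 38 genes and −0.01 over all tested genes, and 37 of 38 values were below 0. All 3 KO libraries lay below all 3 WT libraries in 27 of the 38 genes, against 20.5% of all tested genes, and above them in 0, against 18.9%. Together the 38 genes took 0.406% ± 0.00393 of gene reads other than Rn45s in KO and 0.53% ± 0.025 in WT (SD, n = 3 each; two-sided exact permutation p = 0.1).

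**Figure D1:**
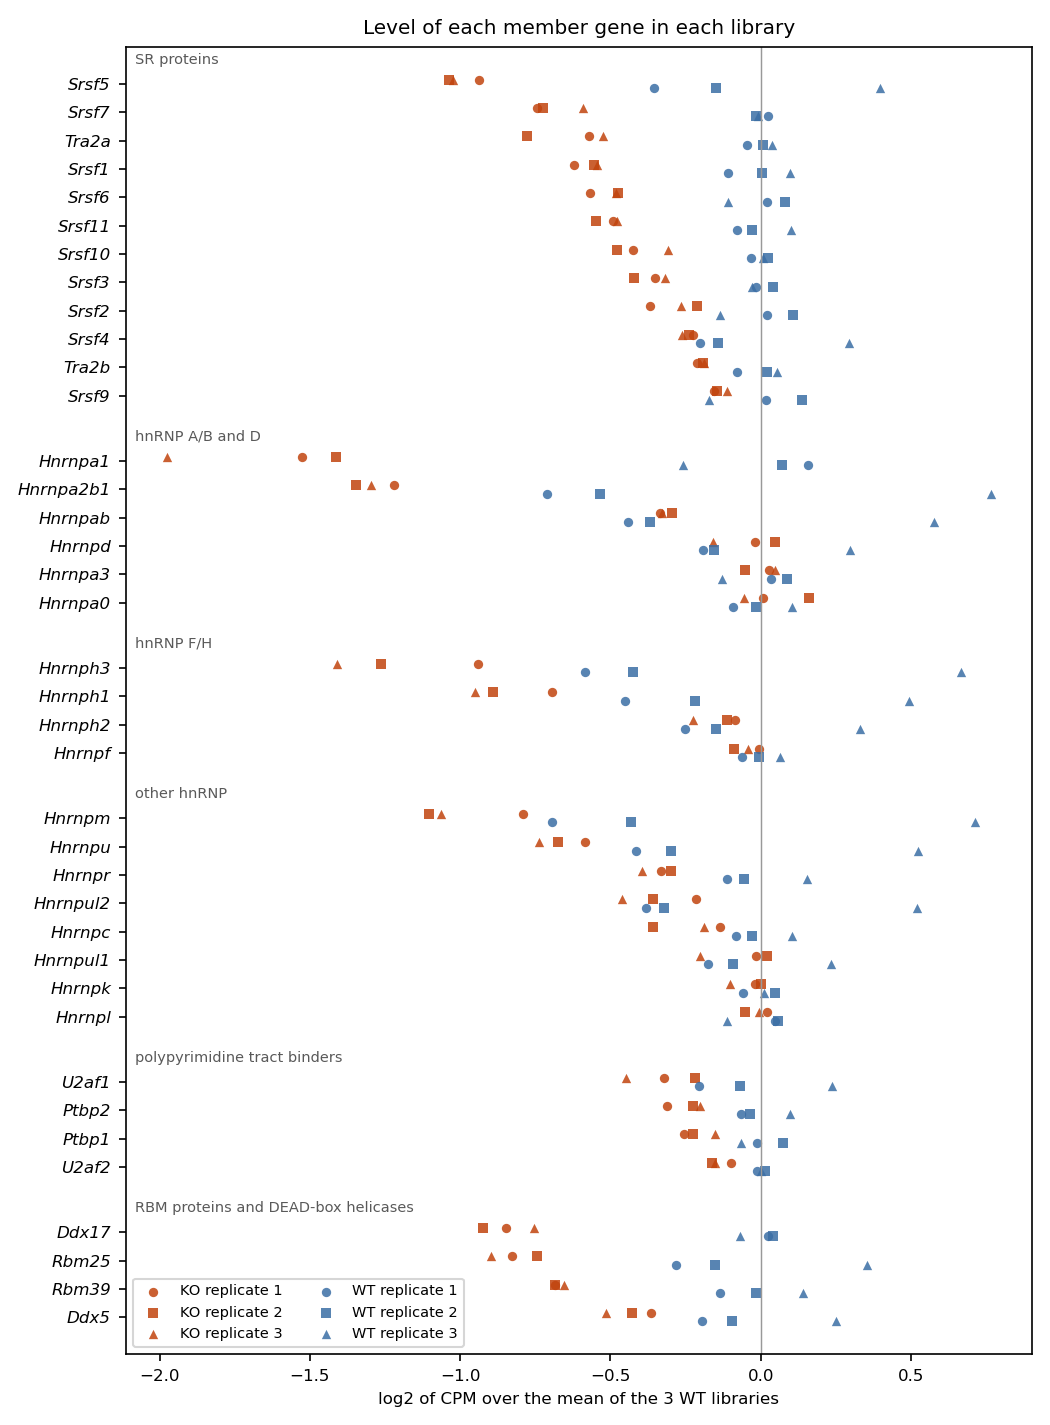
Level of each of the 38 genes in each library, as log2 of its CPM over the mean of the 3 WT libraries (horizontal axis), with genes grouped by role (vertical axis), KO in orange and WT in blue, and a marker shape per replicate. KO points lie left of all WT points in 27 genes, and WT replicate 3 lies far right of the other WT libraries for Hnrnpa2b1, Hnrnpm, Hnrnph3 and other hnRNP genes.

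The 16 genes that fell were counted by role. They comprised 9 of 12 SR genes, 4 of 4 RBM and DEAD-box genes, 1 of 4 polypyrimidine tract binders and 2 of 18 hnRNP genes. These are shares of 75%, 100%, 25% and 11.1%, against 10.2% of all tested genes, so the hnRNP share was near that of all genes. The number depended on single libraries: without KO replicates 1, 2 and 3 it was 12, 11 and 11, without WT replicates 1 and 2 it was 16 and 14, and without WT replicate 3 it was 23, where 13.2% of the genes tested in that fit fell and 10.2% rose. In each of these 6 fits 0 members rose. Lower calls over all genes were also fewer without any 1 of the KO libraries, WT replicate 1 or WT replicate 2. In each of those fits all genes lost a larger share of their lower calls than the members did. With a covariate for how many reads fell outside genes per read inside them, which differed between the groups without overlap, 12 members fell and 4 hnRNP genes rose (Hnrnpab, Hnrnpd, Hnrnph2 and Hnrnpul2), where 5.55% of all tested genes fell and 3.61% rose. Of the 16 genes, 10 (Srsf1, Srsf3, Srsf6, Srsf7, Srsf10, Srsf11, Tra2a, Rbm39, Ddx17 and Hnrnpa1) passed as lower in all 14 alternative analyses run, this covariate included.

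Among the SR genes, Srsf7 gave the clearest separation. Srsf7, an SR protein with a zinc knuckle that also promotes mRNA export, stood at 41, 41.6 and 45.6 CPM in KO replicates 1 to 3, against 69.9, 67.9 and 68.3 CPM in WT replicates 1 to 3. The lowest WT library was well above the highest KO library, and WT replicate 3 did not stand apart from the other WT libraries. The gene fell by 37.8% (log2 −0.69, SE 0.07, adjusted p = 0.000155), and by the same log2 −0.69 without WT replicate 3.

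Srsf1, the founding SR protein, which acts in constitutive and alternative splicing, had 129, 135 and 136 CPM in KO, against 184, 199 and 212 CPM in WT. The groups did not overlap, and the gene fell by 32.5% (log2 −0.57, SE 0.07, adjusted p = 0.000554). Tra2a, an SR-like partner that binds GAA-rich enhancers, had 33.8, 29.3 and 34.9 CPM in KO, against 48.7, 50.5 and 51.5 CPM in WT, a fall of log2 −0.62 (SE 0.08, adjusted p = 0.000833). Its paralog Tra2b had 52.0, 52.8 and 52.9 CPM in KO, against 57.1, 61.1 and 62.6 CPM in WT. That gap of log2 −0.19 (SE 0.06) did not overlap between groups but missed the threshold (adjusted p = 0.0609), and passed it without WT replicate 3 (log2 −0.16, adjusted p = 0.0456).

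Srsf6, which binds purine-rich exonic enhancers, averaged 59.3 ± 2.09 CPM in KO and 84.4 ± 5.61 CPM in WT (SD, n = 3 each; log2 −0.51, SE 0.07). Srsf11, known from the inclusion of neuronal microexons, averaged 51.2 ± 1.33 CPM in KO and 72.7 ± 4.69 CPM in WT (log2 −0.50, SE 0.07). Both fell, with adjusted p of 0.00105 and 0.00111. Srsf10, a splicing repressor when dephosphorylated, averaged 59.5 ± 3.57 CPM in KO and 78.7 ± 1.59 CPM in WT (log2 −0.40, SE 0.07, adjusted p = 0.00323). Srsf3, the smallest SR protein and an adaptor for mRNA export, averaged 79.2 ± 2.85 CPM in KO and 102 ± 2.54 CPM in WT (log2 −0.36, SE 0.06, adjusted p = 0.00358). These 4 genes had no overlap between KO and WT libraries.

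Srsf5 showed the largest fitted difference among SR genes and the widest spread in WT. It had 60.8, 56.7 and 57.2 CPM in KO, against 91.0, 105 and 153 CPM in WT, so WT replicate 3 was 1.56 fold above the mean of the other WT libraries. The gene fell by log2 −0.97 (SE 0.18, adjusted p = 0.0141) with all libraries and by −0.74 (SE 0.06) without WT replicate 3, and lost its call without KO replicate 2 or 3. With the covariate its fall was −0.41 (adjusted p = 0.0226), smaller than those of Srsf7 (−0.69) and Srsf6 (−0.65). Srsf2, a nuclear speckle protein that also acts in release of paused RNA polymerase II, had 69.6, 77.6 and 74.8 CPM in KO, against 91.2, 96.8 and 81.8 CPM in WT. Its fall of log2 −0.29 (SE 0.08, adjusted p = 0.0286) lost its call in 6 of 14 alternatives, among them those without any 1 of the KO libraries, WT replicate 1 or WT replicate 2. With the covariate the fall was −0.45. Srsf4 (log2 −0.20, SE 0.11, adjusted p = 0.24) and Srsf9 (log2 −0.16, SE 0.09, adjusted p = 0.245) did not pass, with 30.6 ± 0.41 and 16.7 ± 0.277 CPM in KO beside 36.1 ± 7.05 and 18.4 ± 1.99 CPM in WT (SD, n = 3 each). Without WT replicate 3, Srsf4 was at log2 −0.06.

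The mouse annotation (GENCODE, GRCm38) shows the poison exons of several of these genes. A poison exon was counted where an internal exon of a transcript annotated to nonsense-mediated decay holds that transcript's stop codon and overlaps no exon of the gene's protein-coding transcripts. By this definition 11 of 38 genes had 1 or more, and 6 of these 11 (54.5%) are among the genes that fell, beside 42.1% of the 38 members and 10.2% of all tested genes, a difference that was not tested. The coding part of 1 such exon is shown for 5 SR genes, 5′ to 3′ from the exon's first base to the premature stop, with the stop codon in capitals, because poison exons are the best known means by which SR genes limit their own output.
Srsf3 (exon at chr17:29039454-29039909, plus strand): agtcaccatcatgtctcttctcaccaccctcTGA
Srsf7 (exon at chr17:80204622-80205081, minus strand): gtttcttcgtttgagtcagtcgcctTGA
Srsf11 (exon at chr3:158024123-158024231, minus strand): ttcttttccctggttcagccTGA
Tra2a (exon at chr6:49252803-49253108, minus strand): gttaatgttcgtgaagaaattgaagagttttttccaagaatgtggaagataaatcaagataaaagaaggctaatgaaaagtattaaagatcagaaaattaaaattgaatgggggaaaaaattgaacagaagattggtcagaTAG
Tra2b (exon at chr16:22258986-22259261, minus strand): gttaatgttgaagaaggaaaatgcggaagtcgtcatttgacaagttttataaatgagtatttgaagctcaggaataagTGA
The exons of Srsf3 and Srsf7 are 456 and 460 bases long and reach their stop after 34 and 28 bases. The count tables give 1 number per gene, so they do not show how many reads came from these exons.

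Transcripts with a retained intron or a premature stop were annotated more widely in the SR genes than across the tissue's genes. A transcript assigned to nonsense-mediated decay was annotated for 11 of 12 SR genes, 8 of 18 hnRNP genes and 27% of the 14208 tested protein-coding genes, and a retained intron transcript for 10, for 12 and for 56%. Of the 24 members with both kinds, 13 fell (median log2 fold change −0.40), and of the 14 others, 3 fell (median −0.24). Across all tested protein-coding genes the same split gave 17.3% lower among genes with both kinds and 7.61% among those without both. These shares describe the annotation, which is denser for well-studied genes, and carry no test.

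All 4 RBM and DEAD-box genes fell with the 6 libraries in the fit, 3 or 4 with 1 library left out, and 2 (Ddx17 and Rbm39) with the covariate for reads outside genes. Ddx17, an RNA helicase and transcriptional coregulator, had 215, 204 and 229 CPM in KO, against 393, 398 and 369 CPM in WT. Every KO library was far below every WT library, and the gene fell by 44.1% (log2 −0.84, SE 0.07, adjusted p = 4.37e-05), the smallest p of the 38. Its paralog Ddx5 had 429, 410 and 386 CPM in KO, against 482, 517 and 657 CPM in WT, and fell by log2 −0.43 (SE 0.11, adjusted p = 0.0232). That call was lost in 5 of 14 alternatives, among them those without any 1 of the KO libraries and with the covariate (log2 −0.08, adjusted p = 0.638).

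Rbm39, a U2AF-related factor that also coactivates nuclear receptors, was at 104, 104 and 106 CPM in KO, against 152, 165 and 184 CPM in WT. The KO libraries were nearly equal to each other, and the fall was log2 −0.68 (SE 0.07, adjusted p = 0.000333). Rbm25, a speckle protein that binds splicing enhancers, was at 53.8, 57.0 and 51.3 CPM in KO, against 78.6, 85.9 and 122 CPM in WT, a fall of log2 −0.80 (SE 0.15, adjusted p = 0.0107). Without WT replicate 3, where Rbm25 was 1.48 fold above the other WT libraries, the fall was −0.60 (SE 0.06), and with the covariate the call was lost (log2 −0.31, adjusted p = 0.0604).

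Among polypyrimidine tract binders, Ptbp2, the neuronal PTB protein, had 85.1, 90.3 and 91.9 CPM in KO, against 101, 103 and 113 CPM in WT. It fell by log2 −0.24 (SE 0.07, adjusted p = 0.0383). That call was lost in 8 of 14 alternatives, among them those without any 1 of the KO libraries or WT replicate 2, and with the covariate (log2 −0.11). Ptbp1, its counterpart in non-neuronal cells, had 28.2, 28.8 and 30.3 CPM in KO, against 33.4, 35.4 and 32.2 CPM in WT, a difference of log2 −0.22 (SE 0.07) that missed the threshold (adjusted p = 0.0625) and passed it without WT replicate 3 (adjusted p = 0.0205). The 2 subunits of U2AF, which recognises the 3′ splice site, did not pass: U2af1 was at log2 −0.29 (SE 0.11, adjusted p = 0.103) and U2af2 at −0.14 (SE 0.06, adjusted p = 0.128). In all 4 genes the KO libraries lay below the WT libraries, against 20.5% of all tested genes. For U2af1 the gap was small, with the highest KO library at 19.1 CPM and the lowest WT library at 19.3 CPM.

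The hnRNP genes divided between a few with large differences and many near 0. Hnrnpa1, a splicing repressor and among the most studied hnRNPs, fell furthest of all 38 genes, at 1.35, 1.46 and 0.988 CPM in KO, against 4.33, 4.08 and 3.25 CPM in WT (log2 −1.67, SE 0.19, adjusted p = 0.000405). These levels rest on 52, 58 and 41 reads in KO and 149, 132 and 21 reads in WT. Of the gene's annotated 50-base stretches, 28.2% also occur in transcripts of other genes. Reads with several places in the genome are not counted, and how many of these stretches have several places was not determined. The level and the fall of Hnrnpa1 are therefore uncertain. The other hnRNP gene that fell was Hnrnpr, which encodes an mRNA transport factor of motor axons. It was at 63.7, 65.2 and 61.0 CPM in KO, against 74.2, 77.2 and 89.3 CPM in WT (log2 −0.33, SE 0.08, adjusted p = 0.0173). That call was lost in 6 of 14 alternatives, among them those without any 1 of the KO libraries and with the covariate (log2 −0.13).

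A second set of hnRNP genes had large fitted differences and a wide spread in WT, and missed the threshold. Hnrnpa2b1, which carries RNA into dendrites and binds methylated adenosines, had 68.4, 62.7 and 64.9 CPM in KO, against 97.3, 110 and 271 CPM in WT. KO libraries were below all WT libraries, and WT replicate 3 was 2.61 fold above the mean of the other WT libraries (log2 −1.25, SE 0.46, adjusted p = 0.148). Hnrnpm, a splicing factor that binds GU-rich sites, had 28.8, 23.2 and 23.8 CPM in KO, against 30.8, 36.9 and 81.7 CPM in WT (log2 −0.89, SE 0.41, adjusted p = 0.218). Hnrnpu, a nuclear matrix protein that anchors chromatin-bound RNA, had 199, 187 and 179 CPM in KO, against 224, 243 and 429 CPM in WT (log2 −0.65, SE 0.26, adjusted p = 0.161). In each of these genes the high WT value was that of replicate 3, and with the covariate for reads outside genes the 3 values turned positive (0.07, 0.26 and 0.16).

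The hnRNP F/H genes bind G-rich stretches near splice sites. Hnrnph1 had 75.4, 65.8 and 63.2 CPM in KO, against 89.2, 105 and 172 CPM in WT (log2 −0.81, SE 0.26, adjusted p = 0.0926). It passed without WT replicate 3 (log2 −0.50, adjusted p = 0.00536) and without WT replicate 1, and stood at −0.07 with the covariate. Hnrnph3 had 10, 8 and 7.23 CPM in KO, against 12.8, 14.3 and 30.5 CPM in WT (log2 −1.05, SE 0.35, adjusted p = 0.101), and stood at −0.06 with the covariate. The gene lies 75.4 kb from Atoh7 on chromosome 10 (63014664 to 63024217, GRCm38). Hnrnph2 (log2 −0.11, SE 0.13) and Hnrnpf (−0.04, SE 0.07) did not pass.

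Without WT replicate 3, 7 of 18 hnRNP genes fell, where 13.2% of the genes tested in that fit fell. These were Hnrnpa1, Hnrnpa2b1 (log2 −0.66, SE 0.06, adjusted p = 1.9e-05), Hnrnph1, Hnrnph3 (−0.68, SE 0.13), Hnrnpm (−0.42, SE 0.11), Hnrnpr (−0.25, SE 0.05) and Hnrnpu (−0.31, SE 0.06). The same library was more than 1.5 fold above the mean of the other WT libraries in 7 of 18 hnRNP genes, in 1 of 12 SR genes (Srsf5) and in 7.19% of all tested genes. The 7 were Hnrnpa2b1, Hnrnpm, Hnrnph3, Hnrnpab (1.97 fold), Hnrnpu, Hnrnpul2 (1.83 fold) and Hnrnph1. Its Rn45s share of 63.2% and unmapped share of 18.2% stand beside these values, and their part in them was not tested.

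**Figure D2:**
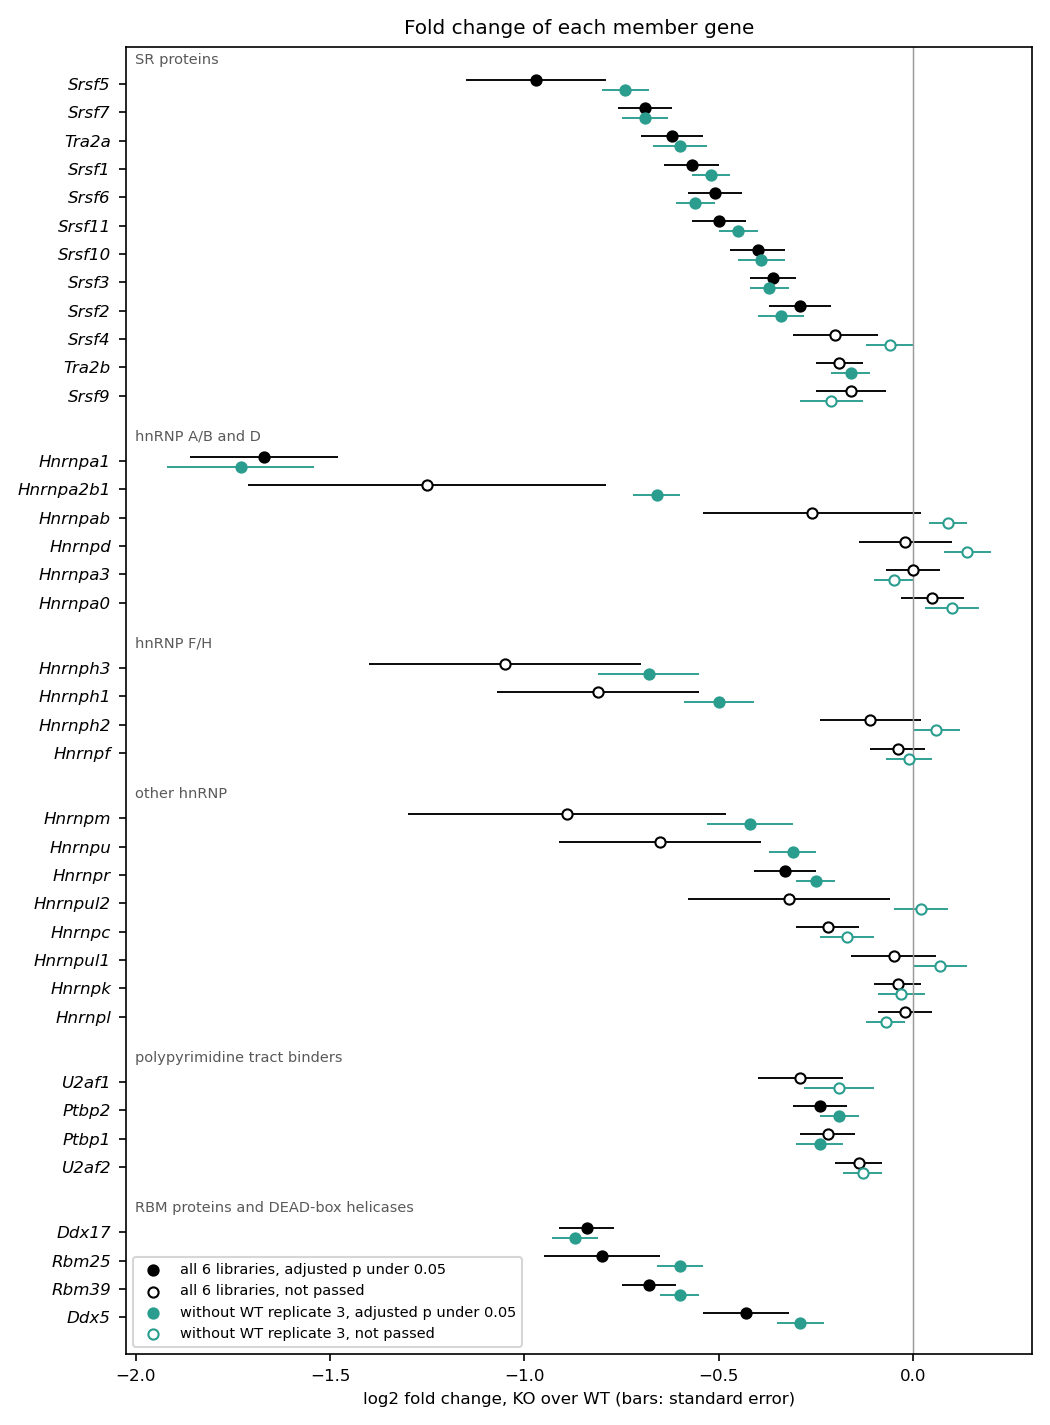
Log2 fold change of each gene, KO over WT, with its standard error (horizontal axis), by role (vertical axis), from all 6 libraries in black and without WT replicate 3 in green; filled points have an adjusted p under 0.05. Srsf7 stands at −0.69 in both fits, while Hnrnpa2b1 stands at −1.25 with all libraries and −0.66 without WT replicate 3.

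**Figure D3:**
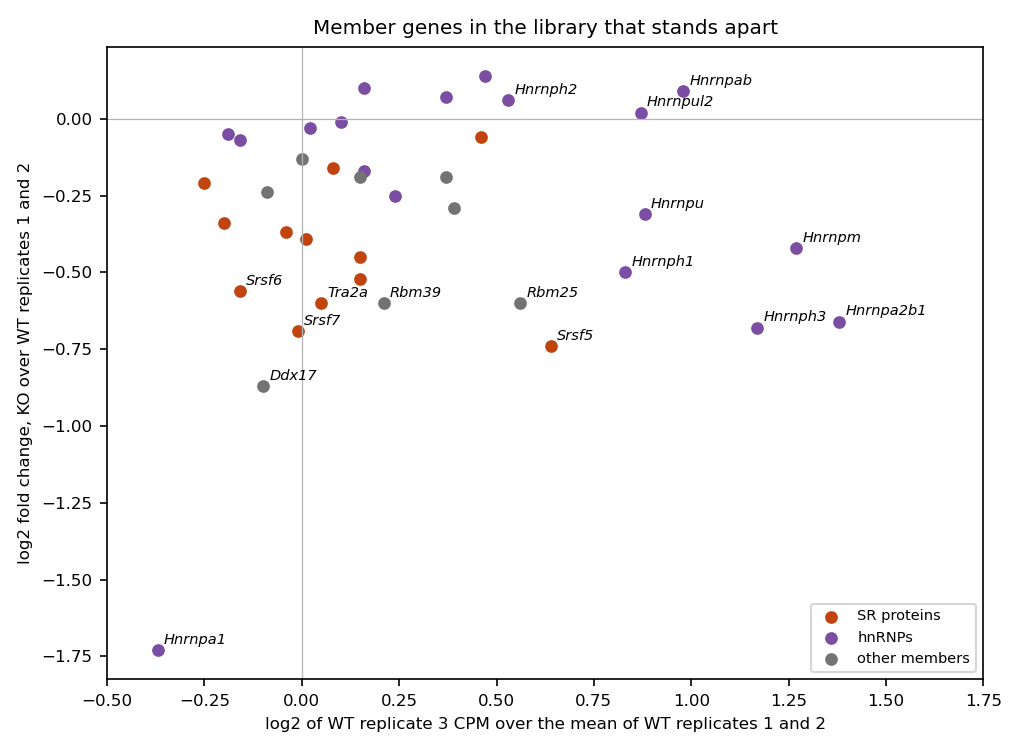
Each of the 38 genes by the log2 ratio of WT replicate 3 to the mean of WT replicates 1 and 2 (horizontal axis) and by its log2 fold change, KO over WT replicates 1 and 2 (vertical axis). hnRNP genes reach 1.38 on the horizontal axis (Hnrnpa2b1), and most SR genes lie near 0 there and below 0 on the vertical axis.

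The other hnRNP genes gave small differences. Hnrnpk, a binder of C-rich RNA and DNA, had 301, 305 and 284 CPM in KO, against 293, 315 and 307 CPM in WT, with overlapping groups (log2 −0.04, SE 0.06, adjusted p = 0.695). Hnrnpl, which binds CA repeats, was at −0.02 (SE 0.07). Hnrnpa3, a close relative of Hnrnpa1, ranged over 55.0 to 58.9 CPM in KO and 52.1 to 60.5 CPM in WT (adjusted p = 0.988), so the groups overlapped. Hnrnpa0, the sole value above 0, was at 0.05 (SE 0.08). Hnrnpd, an AU-rich element decay factor, was at −0.02 (SE 0.12) and Hnrnpul1 at −0.05 (SE 0.11). Hnrnpc, a binder of U-rich tracts, did not overlap between groups but missed the threshold (log2 −0.22, SE 0.08, adjusted p = 0.0741). Hnrnpab (log2 −0.26, SE 0.28) and Hnrnpul2 (log2 −0.32, SE 0.26) stood at 0.09 and 0.02 without WT replicate 3.

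Ratios within a library do not depend on scaling between libraries. Tra2b reads per Tra2a read were 1.54, 1.8 and 1.52 in KO, against 1.17, 1.21 and 1.22 in WT, and every KO library was above every WT library (difference of mean log2 ratios 0.43). Hnrnph2 reads per Hnrnph1 read were 0.789, 0.885 and 0.853 in KO, against 0.594, 0.544 and 0.46 in WT, again without overlap (0.67). For both pairs the exact permutation test (two-sided) gave p = 0.1, its lowest possible value, and 0.25 after Benjamini-Hochberg adjustment over the 5 pairs compared. Ptbp2 reads per Ptbp1 read were 3.02, 3.13 and 3.03 in KO, against 3.01, 2.90 and 3.49 in WT, a difference of log2 −0.03 (exact p = 1), which was 0.05 without WT replicate 3. Ddx17 reads per Ddx5 read (log2 −0.42, exact p = 0.2) and Hnrnpa2b1 reads per Hnrnpa1 read (log2 0.50, exact p = 0.5) overlapped between groups. Both overlaps came from WT replicate 3. Hnrnpa2b1 reads per Hnrnpa1 read were 50.8, 42.8 and 65.7 in KO, against 22.5, 27 and 83.2 in WT, and without WT replicate 3 the differences were log2 1.08 for this pair and −0.58 for Ddx17 and Ddx5, with no overlap.

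Levels per length span a wide range. Scaled to the length of all merged exons, Ddx5 was the highest, at 70.7 ± 3.72 CPM per kb in KO and 95.6 ± 16.0 in WT (SD, n = 3 each). Hnrnpk followed in KO, at 45.9 ± 1.70 CPM per kb in KO and 47.2 ± 1.77 in WT, and Ddx17 followed in WT, at 28.3 ± 1.66 in KO and 50.6 ± 1.97 in WT. Hnrnpa0 (45.1 ± 3.49 CPM per kb in KO and 43.8 ± 3.15 in WT) did not differ from Hnrnpk beyond their spread. Srsf1 was the highest SR gene in WT, at 23.4 ± 0.648 CPM per kb in KO and 34.7 ± 2.45 in WT. Hnrnpa1 was the lowest, at 0.402 ± 0.0787 CPM per kb in KO and 1.23 ± 0.178 in WT, with the limit on its counting given above.

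**Figure D4:**
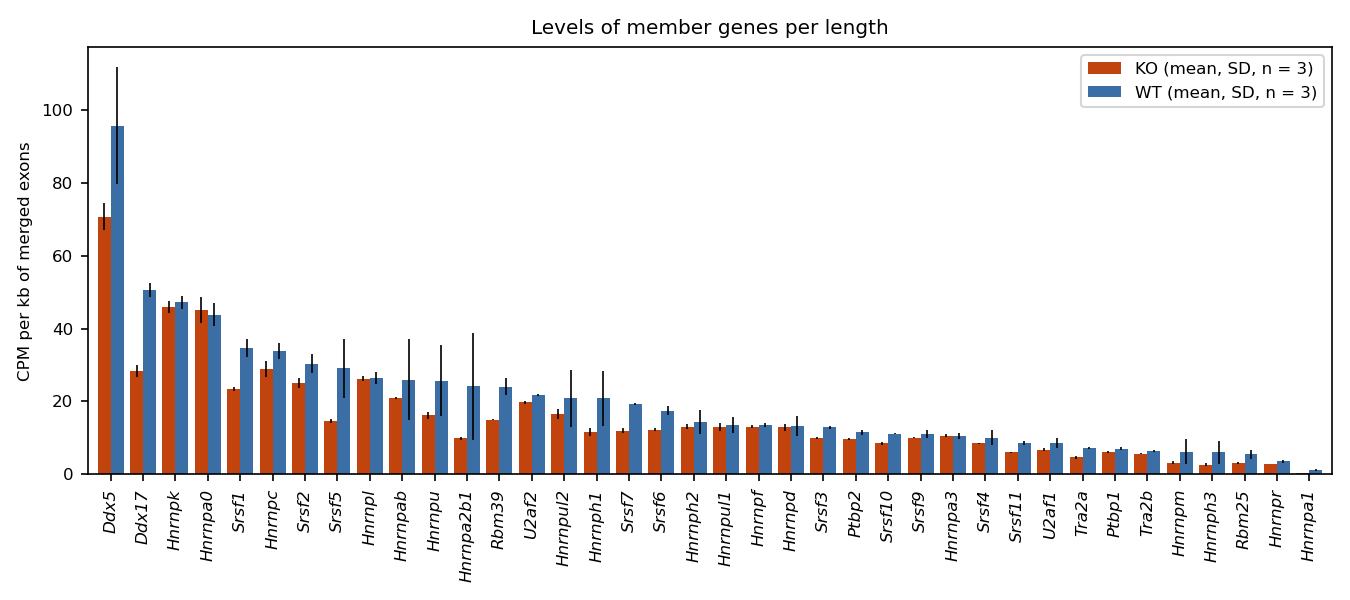
Mean level of each gene in CPM per kb of merged exons (vertical axis, bars from 0 with SD, n = 3 each), KO in orange left of WT in blue, in the order of the WT level (horizontal axis). Ddx5 leads at 70.7 in KO and 95.6 in WT, and wide WT bars mark genes that are high in WT replicate 3, such as Hnrnpa2b1.

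The strand column used here leaves out reads on the opposite strand, which were few at most genes of the set. Overlap with genes on the same strand was not examined. Reads on the opposite strand were under 1% in both groups at 26 of 38 genes and highest at Hnrnph3, with 8.82% in KO and 12.6% in WT. In the column that ignores strand, Srsf4 kept 22.1% of its reads in KO and 24.4% in WT, and Hnrnph3 kept 24.1% in KO and 21.7% in WT, since reads that touch a gene on the other strand count for neither there. With that column Hnrnph3 passed as lower. Stretches of 50 bases shared with transcripts of other genes made up 61.9% at Hnrnpf, 39.5% at Srsf4, 27.1% at Hnrnpa3 and 23.8% at Hnrnpab. These transcripts include those of overlapping genes and pseudogenes, on either strand. A stretch shared with an overlapping gene can still have a unique place in the genome. The shares are therefore not the part of a gene where reads cannot be placed uniquely, which was not determined. The labels name no read length.

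The promoters of these genes were searched for short motifs on both strands, as a description. RefSeq windows (GRCm38.p6) were found for 36 of 38 genes, and not for U2af2 and Hnrnpul2. Each has 300 bases that end 50 bases after the most upstream start listed in RefSeq for the gene. For some genes that start lies inside the gene as annotated by GENCODE. Examples are Hnrnpk (minus strand, gene end 58403343) and Rbm25 (plus strand, gene start 83631236, stretch before the RefSeq start from 83635590). CCAAT was present in 21 of 36 windows (58.3%), against 38% of all windows and 38.3% of windows of tested genes. GGGCGG was present in 27 (75%), against 35.9% of all windows and 62.9% of those of tested genes, and TATAAA in 5 (13.9%), against 14.2% and 7.23%. Among the 16 genes that fell, 9 had the CCAAT motif and 12 the GC box just given. The ETS motif CCGGAAG was in 7 of 36 windows (19.4%, against 16% of windows of tested genes). The E-box letters CACGTG were in 5 windows (13.9%, against 9.82% of windows of tested genes), none of them of a gene that fell. The cyclic AMP response element TGACGTCA was in 1 window (2.78%, against 3.14%), and the Nrf1 palindrome was in 0 (against 1.9%). The 120 bases before the start are shown for 2 SR genes that fell and for Hnrnpk, which did not pass, with these motifs in capitals on either strand.
Srsf3 (chr17:29032540-29032659, plus strand): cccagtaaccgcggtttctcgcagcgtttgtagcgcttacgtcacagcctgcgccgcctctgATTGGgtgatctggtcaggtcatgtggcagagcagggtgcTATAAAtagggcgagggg
Srsf7 (chr17:80207306-80207425, minus strand): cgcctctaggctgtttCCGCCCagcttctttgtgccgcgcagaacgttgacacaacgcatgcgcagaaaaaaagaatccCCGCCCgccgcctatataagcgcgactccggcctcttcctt
Hnrnpk (chr13:58402118-58402237, minus strand): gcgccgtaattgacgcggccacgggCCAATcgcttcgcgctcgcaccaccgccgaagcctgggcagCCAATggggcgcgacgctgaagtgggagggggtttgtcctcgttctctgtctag
The stretch of Srsf3 holds the complement of CCAAT and TATAAA, that of Srsf7 holds the complement of GGGCGG at 2 places, and that of Hnrnpk holds CCAAT at 2 places. A match of letters is a description and not a binding site.

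Other genes of the splicing pathway were read from 4 further lists. Of 24 relatives of the SR and hnRNP proteins, 11 fell and 0 rose (45.8% lower, against 10.2% of all tested genes; median log2 fold change −0.34). Rbm5, a regulator of alternative splicing in apoptosis genes, averaged 54.9 ± 0.473 CPM in KO and 92.7 ± 13.1 CPM in WT (SD, n = 3 each; log2 −0.74, SE 0.09). Rbmx, the X-linked hnRNP G, averaged 25.3 ± 0.98 CPM in KO and 47.9 ± 8.53 CPM in WT (log2 −0.90, SE 0.11), and Tardbp, which represses cryptic exons, averaged 103 ± 3.98 CPM in KO and 147 ± 10.0 CPM in WT (log2 −0.51, SE 0.07). Their adjusted p were 0.000645, 0.000681 and 0.00111. Of the list's genes with hnRNP or SR symbols, Hnrnpdl (log2 −0.61, SE 0.10, adjusted p = 0.00284) and Hnrnpll (log2 −0.29, SE 0.07, adjusted p = 0.0245) fell. Srsf12 did not pass (log2 0.16, SE 0.11, adjusted p = 0.334). The list had 6 lower genes without KO replicate 2 or 3, where lower calls over all genes were fewer as well. With the covariate it had 5, where 5.55% of all tested genes fell.

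The core spliceosome had a smaller share of lower genes, a difference that was not tested. Of 41 genes for snRNP proteins and splicing helicases, 9 fell and 0 rose, a share of 22%, against 10.2% of all tested genes, with a median of −0.09. Snrnp70, the U1 snRNP protein that contacts SR proteins, averaged 60.1 ± 2.94 CPM in KO and 155 ± 37.2 CPM in WT (SD, n = 3 each; log2 −1.35, SE 0.15, adjusted p = 0.00121). Sf3b1, which holds the branch point, fell by log2 −0.51 (SE 0.06, adjusted p = 0.00066), and Prpf3, a protein of the U4/U6 snRNP, by log2 −0.59 (SE 0.10, adjusted p = 0.00323). Without KO replicate 3 the list had 5 lower genes, and lower calls over all genes were fewer in that fit as well. With the covariate it had 4 lower and 4 higher, where 5.55% of all tested genes fell and 3.61% rose.

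Neuronal and tissue-restricted splicing regulators were near the background. Of 24 genes, 3 fell and 0 rose (12.5% lower, against 10.2% of all tested genes; median −0.02): Celf3 (log2 −0.42, SE 0.09), Srrm4, which drives neuronal microexons (−0.32, SE 0.08), and its relative Srrm3 (−0.29, SE 0.08). The list had 0 lower genes without KO replicate 2 or 3 and 1 without WT replicate 2, where lower calls over all genes were fewer as well. Without WT replicate 3 it had 1 higher gene, where 10.2% of the genes tested in that fit rose. Of 15 factors of nonsense-mediated decay, 3 fell and 0 rose (20% lower, against 10.2% of all tested genes; median −0.15). Smg1, the kinase that phosphorylates Upf1, averaged 168 ± 14.0 CPM in KO and 271 ± 12 CPM in WT (SD, n = 3 each; log2 −0.69, SE 0.07, adjusted p = 0.000274), and Smg9 (−0.33, SE 0.08) and Upf3b (−0.51, SE 0.15) fell as well. That list had 1 lower gene without KO replicate 1, 2 or 3 or WT replicate 2, where lower calls over all genes were fewer as well. Without WT replicate 3 it had 2 higher genes, where 10.2% of the genes tested in that fit rose. All 4 lists share their libraries with the 38 genes, so they are not independent of them.

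**Figure D5:**
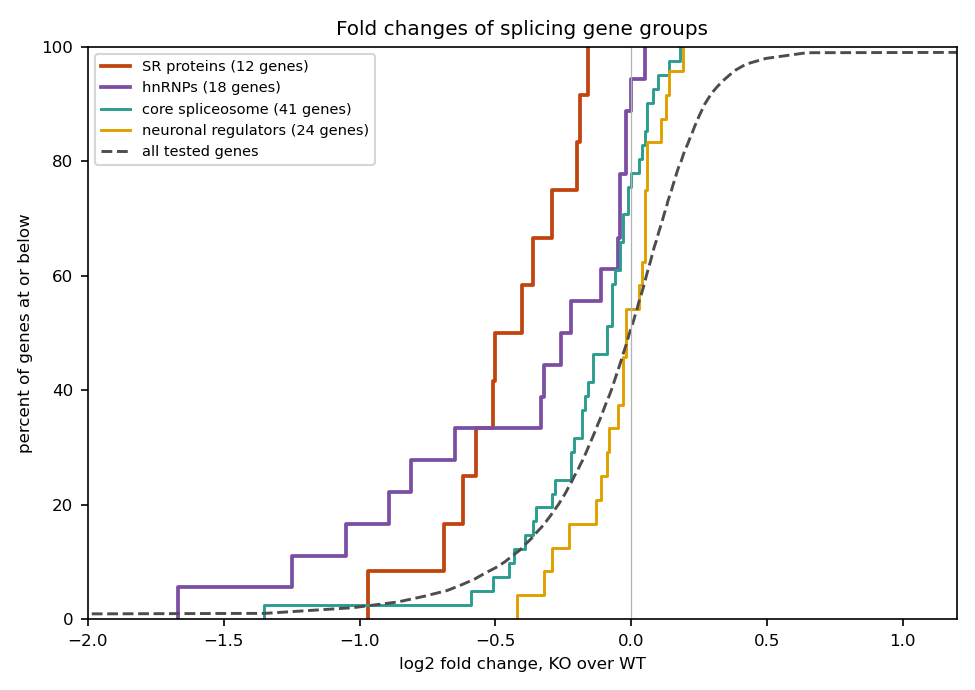
Percent of genes (vertical axis) at or below each log2 fold change, KO over WT (horizontal axis). Curves are for the SR genes and hnRNP genes of the set, the core spliceosome, neuronal regulators and all tested genes (dashed). The SR curve lies wholly left of 0, between −0.97 and −0.16, the hnRNP curve combines a long lower tail with genes near 0, and the curve of neuronal regulators runs near that of all tested genes.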

How the data were processed

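The deposited files hold raw read counts per gene, 1 file per library, and Trimmomatic, STAR and the build mm10 are named, per the submitters' processing notes. Their versions, the annotation and the strand setting were not given in these sources. Column 4 was used, since over all libraries its counts exceeded those of the other strand 55.4 fold. Summary lines that name no gene entered neither library sizes nor tests and held 5.97% to 18.2% of reads as unmapped, 6.97% to 9.83% with several places and 17.1% to 38.5% outside genes. Genes were filtered with edgeR's filterByExpr (8892 removed), scaled by TMM and compared with edgeR's quasi-likelihood test (edgeR 4.0.16, limma 3.58.1, R 4.3.3), with p adjusted by Benjamini-Hochberg across the 15519 genes. SE is the absolute log2 fold change over the square root of F. DESeq2 1.42.0 was an alternative. Gene positions, exon lengths and transcript types came from GENCODE M21, and promoters from RefSeq. The members and lists were chosen with earlier results of these data known. Named genes are all 38 members and, of each further list, up to 3 per direction with the smallest p among those past the threshold. Hnrnpdl, Hnrnpll and Srsf12 are named besides, for their symbols. CPM values were computed from the deposited counts with TMM scaling. Alternatives changed scaling, test, filter, strand column, covariate, block and depth, or left out 1 library. Library groups and numbers came from the sample titles.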

Additional observations from a re-analysis of the deposited data

How the results depend on the processing

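Direction and calls were recomputed under 14 alternatives. Size factors by relative log expression, leaving out Rn45s and the unstranded column left 16, 16 and 17 members lower, and no filter left 15. With DESeq2, 5 hnRNP genes were lower. The replicate numbers did not pair the libraries (correlations of same-numbered libraries −0.18, −0.14 and −0.10). With the replicate number as a block, 12 members, 1 hnRNP gene, 1 neuronal regulator and 1 decay factor were lower. After thinning all libraries to the depth of WT replicate 3, 14 members, 1 hnRNP gene, 1 neuronal regulator and 1 decay factor were lower. Lower calls over all genes were also fewer with the block and after thinning. In both settings all genes lost a larger share of these calls than the members did. That share was smaller than for hnRNP genes, neuronal regulators and decay factors.

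A covariate for reads outside genes per read inside them, which is confounded with genotype, changed the calls of the most lists. The median of the members was then −0.13, and 5.55% of all tested genes were lower and 3.61% higher. Under it 4 members were higher, among hnRNP genes 1 was lower and 4 higher, 2 RBM and DEAD-box genes and 5 relatives were lower, the core spliceosome had 4 lower and 4 higher, neuronal regulators 0 lower and 1 higher, and decay factors 1 lower and 2 higher. Log2 fold changes turned positive for Srsf4 (0.18), Hnrnpa2b1 (0.07), Hnrnpab (0.61), Hnrnpd (0.38), Hnrnpf (0.04), Hnrnph2 (0.34), Hnrnpm (0.26), Hnrnpu (0.16), Hnrnpul1 (0.26), Hnrnpul2 (0.48), U2af1 (0.002) and Upf3b (0.02). Hnrnpa3, near 0 throughout, turned to 0.005 with relative log expression, 0.01 with DESeq2, no filter or unstranded counts, and 0.004 with the block. The causes were not tested.

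With 1 library left out, lower calls ranged from 11 to 23 for members, 7 to 10 for SR genes, 1 to 7 for hnRNP genes, 3 to 4 for RBM and DEAD-box genes, 6 to 14 for relatives, 5 to 9 for the core spliceosome, 0 to 3 for neuronal regulators and 1 to 4 for decay factors. Higher calls ranged from 0 to 1 for relatives, 0 to 1 for neuronal regulators and 0 to 2 for decay factors. Calls over all genes moved with the library left out as well. The median ranged from −0.40 to −0.27. Ranges that crossed 0 were those of Hnrnpa0 (−0.02 to 0.10), Hnrnpa3 (−0.05 to 0.04), Hnrnpab (−0.44 to 0.09), Hnrnpd (−0.11 to 0.14), Hnrnph2 (−0.22 to 0.06), Hnrnpl (−0.07 to 0.01), Hnrnpul1 (−0.13 to 0.07), Hnrnpul2 (−0.47 to 0.02) and the Ptbp2 to Ptbp1 log2 ratio (−0.08 to 0.05). WT replicate 3, with 6015125 gene reads other than Rn45s, limits the precision of some genes. The SE of Hnrnpa2b1 was 0.46 with this library and 0.06 without it, and that of Hnrnpm 0.41 and 0.11. For Hnrnpa1, with 21 reads there, the SE was 0.19 in both fits.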
